A study of Mus musculus with 9 samples.

Results

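Cells sense oxygen through a short chain of proteins centred on the hypoxia-inducible factors (HIF), and the 10 genes described here encode that chain: the HIF alpha subunits Hif1a, Epas1 and Hif3a, the beta subunits Arnt and Arnt2, the prolyl hydroxylases Egln1, Egln2 and Egln3, the asparaginyl hydroxylase Hif1an and the ubiquitin ligase receptor Vhl. They were selected by gene symbol, and all 10 were found among the 40548 genes of the day 0 and day 7 tables and the 40526 genes of the day 4 tables. RNA was sequenced from calvarial osteoblasts, the bone-forming cells of the skull roof, which were isolated from C57BL/6 pups on postnatal day 2 to 3, grown to confluence and then kept in mineralization medium. Cells were taken without differentiation (day 0) and after 4 or 7 days, with 3 libraries per stage, 9 in all. The study describes the libraries of a stage as biological replicates, from pups of both sexes. The labels do not tie a library to a culture or pup, so the p-values concern libraries and not known cultures or pups. All 3 stages share the strain, tissue and age, and the labels name no genetic change. The cultures were primary mixtures rather than a purified cell type, and mineralized cells were released with collagenase I before trypsin whereas non-mineralized cells were not, so that stage and release method cannot be told apart.

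When oxygen is plentiful, the prolyl hydroxylases mark HIF alpha subunits for capture by the Vhl protein, which brings them to a ubiquitin ligase and to degradation, and the asparaginyl hydroxylase blocks their contact with coactivators. When oxygen falls, the alpha subunits persist, pair with a beta subunit and bind short DNA elements near genes of glycolysis, angiogenesis and matrix processing. Egln1 and Egln3 are themselves known targets of HIF, and HIF in osteoblasts is known for linking bone formation to blood vessel growth. Much of this control acts on protein, which RNA-seq does not measure.

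The promoter letters of the 3 prolyl hydroxylase genes are shown because Egln3 and Egln1 were the members whose RNA rose and Egln2 is their paralogue that did not. The sequences are from RefSeq (GRCm38.p6), read 5′ to 3′ on the strand of the gene, up to the base before the RefSeq start. Capitals mark ACGTG or GCGTG on either strand, the core letters of the element that HIF binds. The Egln3 window is chr12:54203875-54204124 and the Egln2 window chr7:27166803-27167052, both on the minus strand. For Egln1, the 70 bases nearest the RefSeq start lie inside the annotated gene and are left out, which leaves chr8:124949325-124949504 on the minus strand.
Egln3: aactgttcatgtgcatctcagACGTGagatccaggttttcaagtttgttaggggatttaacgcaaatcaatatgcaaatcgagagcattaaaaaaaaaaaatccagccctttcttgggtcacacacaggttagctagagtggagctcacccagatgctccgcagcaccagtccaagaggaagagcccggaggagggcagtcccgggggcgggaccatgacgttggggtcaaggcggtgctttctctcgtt
Egln1: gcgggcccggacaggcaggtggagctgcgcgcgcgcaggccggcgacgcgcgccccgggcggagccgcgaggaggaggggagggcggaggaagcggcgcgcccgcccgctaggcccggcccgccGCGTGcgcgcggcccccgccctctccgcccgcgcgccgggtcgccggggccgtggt
Egln2: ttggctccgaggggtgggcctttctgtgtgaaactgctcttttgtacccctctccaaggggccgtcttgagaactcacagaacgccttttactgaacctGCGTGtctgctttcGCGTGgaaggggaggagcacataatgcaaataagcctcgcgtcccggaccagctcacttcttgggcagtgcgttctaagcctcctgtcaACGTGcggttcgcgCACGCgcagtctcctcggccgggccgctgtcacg
The Egln3 window held 1 match, an ACGTG at bases 229 to 225 before the start. The Egln1 window of 250 bases held 2, a GCGTG at bases 126 to 122 and an ACGTG at bases 68 to 64, the second of them in the part not printed. The Egln2 window held 4, of which 3 were GCGTG and 1 was ACGTG. A second RefSeq start of Egln2, whose window lies inside the annotated gene and is not printed, had 1 further GCGTG in its 250 bases. Of the 10 members, 9 matched the promoter table, with Epas1 the exception. Of these 9, 6 had at least 1 match (Hif1a, Hif3a, Arnt, Egln1, Egln2 and Egln3), and no match lay in the windows of Arnt2, Hif1an and Vhl. In the Hif1a window, 2 of its 3 matches were the 2 strands of a single CACGTG. Such letters are common: 38.6% of 32851 windows of this length held at least 1, so a match describes the sequence and nothing more. The windows also differed in base composition, with 86.0% G or C and 51 CpG in Egln1, 59.2% and 20 in Egln2, and 50.8% and 10 in Egln3.

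Reads assigned to genes ranged from 7741204 to 14013219 per library at day 0, from 32820610 to 37306090 at day 4 and from 10675858 to 15622755 at day 7. Among 8 osteoblast markers, 7 rose from day 0 to day 7 (limma, as below). At day 0, Bglap, Dmp1 and Phex averaged 0.550, 0.196 and 0.182 RPKM (reads scaled to the library's total and to the length of the gene model). Most of the markers' summed level was Col1a1, with means of 2158 RPKM at day 0 and 5475 at day 7. That sum went from 1801 to 2515 RPKM in the day 0 libraries to 8042 to 10135 in those of day 7. All 8 macrophage markers also rose, from a summed 48.3 to 80.4 RPKM at day 0 to 92.9 to 123 at day 7. Of 7 osteoclast markers, the 3 that could be tested rose (Ctsk, Acp5 and Atp6v0d2), and the sum, most of it Ctsk, was 101 to 134 RPKM at day 0, 237 to 244 at day 4 and 234 to 243 at day 7. The others, Ocstamp, Oscar, Calcr and Dcstamp, averaged at most 0.196 RPKM at any stage. Of 10 endothelial markers, Tie1 and Emcn were at 0 in all 9 libraries and 2 could be tested, of which Erg rose from 4.07 RPKM at day 0 to 15.9 at day 4 and 9.02 at day 7, and Egfl7 was at 2.15, 1.48 and 1.88 RPKM. The endothelial sum was 5.36 to 7.59 RPKM at day 0, 15.4 to 19.5 at day 4 and 10.7 to 11.6 at day 7. The part of these cell types in the members' changes was not tested. A single RNA, Gm42418, took 12.0% of the reads of day 0 replicate 3 and 8.12% of those of day 7 replicate 2, and members whose call or sign changed without these libraries are given with those values. Another gene, Plekhh2, took 7.95% of the reads of day 7 replicate 3, and no member tested changed call or sign without that library. Levels compared between genes are RPKM. Folds and tests compare day 7 with day 0 on log2(CPM + 0.5), where CPM is reads scaled to the library's total alone. The test was limma's, adjusted by the Benjamini-Hochberg method over the 12712 genes whose CPM averaged 1 or more. The median log2 fold change of these genes was −0.11, and −0.0086 with median-of-ratios scaling, which raises every member's fold change by about the same shift. Day 4 has a table of its own and deeper libraries, so its stage cannot be told apart from these, and day 4 entered no test. It was compared by whether every library of a stage lay above every library of another.

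Between day 0 and day 7, 2 of the 9 members tested rose, Egln1 and Egln3, and 1 fell, Arnt2. Of all genes tested, 12.6% rose and 18.6% fell, so the count of members that moved was not far from that of other genes. The size differed between members, and the rise of Egln3, 27.0-fold, was by far the largest among them. Hif3a, with a mean of 0.186 CPM, was too low to be tested. From day 0 to day 4, Hif1a, Egln1 and Egln3 were higher in every library and Arnt, Arnt2 and Egln2 were lower in every library, which is 3 members in each direction beside 21.1% of genes higher and 22.2% lower. From day 4 to day 7, no member was higher in every library, beside 13.8% of genes (Egln2 was with median-of-ratios and protein-coding scaling), and Hif1a and Vhl were lower in every library, beside 24.6% of genes. The panels of single libraries show these patterns for each member.

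**Figure D1:**
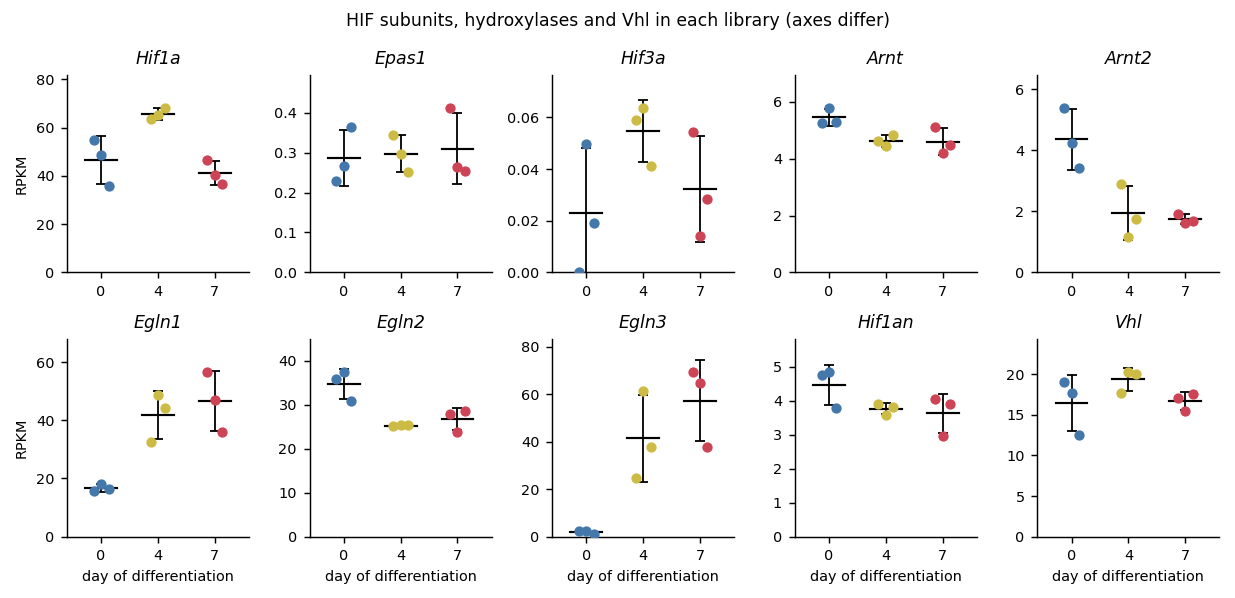
Level of each of the 10 members in RPKM (y axis, from 0, a different range in each panel) by day of differentiation (x axis). Points are the 3 libraries of a stage, the long bar is their mean and the error bar their SD, cut off at 0 for Hif3a; the Egln3 libraries lie between 1.21 and 2.36 RPKM at day 0 and between 24.8 and 69.4 RPKM later.

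Egln3 encodes PHD3, the prolyl hydroxylase known for its strong induction by HIF. It was low before differentiation, at 2.36, 2.26 and 1.21 RPKM in the 3 day 0 libraries, from 25 to 88 reads. At day 4 it stood at 24.8, 61.2 and 37.8 RPKM, and at day 7 at 69.4, 64.7 and 37.7 RPKM. Every later library was thus far above the highest of day 0, whereas the day 4 and day 7 libraries overlapped. The fold between day 7 and day 0 was 27.0, with a log2 fold change of 4.75 ± 0.20 (SE, n = 3 per stage), a 95% interval of 20.4-fold to 35.7-fold and a limma adjusted p of 4.28e-25. This interval rests mostly on variance pooled over genes, and with edgeR the adjusted p was 5.28e-07. By mean RPKM, 21.2-fold was reached by day 4 and 1.39-fold was added between day 4 and day 7. The gene lies at chr12:54178981-54203860 on the minus strand (GRCm38), no annotated gene overlaps it, and no stretch of 50 bases of its transcripts occurs in those of another gene.

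Egln3 varied widely within the later stages, with an SD of 18.4 RPKM around a mean of 41.3 at day 4 and of 17.1 around 57.3 at day 7. At day 4 it was highest in replicate 2 and lowest in replicate 1, and at day 7 highest in replicate 1 and lowest in replicate 3. Among 30 known HIF targets outside glycolysis, 24 ranked the day 4 libraries in the same order as Egln3, compared with 17.6% of all genes, and 21 ranked the day 7 libraries in its order, compared with 15.9% of all genes. This look at the ranking was chosen after the values were seen and is a description. Over the 9 libraries, the genes with the pattern most like Egln3 on log2(RPKM + 0.1) were Bnip3, a mitophagy receptor (Pearson r = 0.999), Fam162a (r = 0.998) and Prelid2 (r = 0.998), of 12145 genes compared. Bnip3 went from 9.10 RPKM at day 0 to 56.4 at day 4 and 69.2 at day 7. These correlations share the 9 libraries and the difference between stages.

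Egln1 encodes PHD2, regarded as the main oxygen sensor for HIF alpha. It was at 15.6, 18.2 and 16.2 RPKM at day 0, at 32.6, 48.8 and 44.3 RPKM at day 4 and at 56.8, 47.1 and 36.0 RPKM at day 7. All 6 later libraries were above all 3 of day 0, and those of day 4 and day 7 overlapped. The rise to day 7 was 2.74-fold, with a 95% interval of 2.19 to 3.44, a log2 fold change of 1.46 ± 0.16 (SE) and a limma adjusted p of 2.99e-10. Its gene model at chr8:124908587-124949324 on the minus strand has no overlapping gene. The calls of Egln1, Egln3 and Arnt2 held in all 19 alternatives that were run.

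Egln2 encodes PHD1, the paralogue that HIF is not known to induce. It stood at 35.9, 37.6 and 30.9 RPKM at day 0, at 25.2, 25.4 and 25.3 RPKM at day 4 and at 27.8, 23.8 and 28.5 RPKM at day 7, so that every later library was below every day 0 library. The log2 fold change from day 0 to day 7 was −0.38 ± 0.16 (SE), with a 95% interval of −0.69 to −0.065 and a limma adjusted p of 0.0582, just above the threshold of 0.05. It passed the threshold in 8 of the 19 alternatives, always lower at day 7, among them median-of-ratios scaling (−0.27, limma adjusted p = 0.0130) the fit without day 0 replicate 3 (−0.46, limma adjusted p = 0.00341) and the fit without day 0 replicate 3 and day 7 replicate 2 (−0.38, limma adjusted p = 0.00528). Whether it passed the threshold thus depended on the scaling and on that library. The gene at chr7:27158658-27166802 overlaps the end of Cyp2t4 on the opposite strand, which had at most 10 reads in a library.

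Because these values are per length, the 3 prolyl hydroxylase genes can be set against each other. At day 0, Egln2 made up 65.1% ± 1.4 (SD, n = 3) of their summed RPKM, Egln1 31.3% ± 2.3 and Egln3 3.60% ± 0.97. At day 4 the shares were 24.3% ± 5.9 for Egln2, 38.9% ± 2.6 for Egln1 and 36.8% ± 7.7 for Egln3, and at day 7 they were 21.2% ± 5.8, 35.6% ± 1.1 and 43.2% ± 5.6. The share of Egln2 was 63.9% or more in each day 0 library and 30.5% or less in each later library. The sum itself rose from 53.4 ± 4.8 RPKM (SD) at day 0 to 108 ± 26 at day 4 and 131 ± 26 at day 7. Egln2 thus had the largest share in each day 0 library and the smallest mean share at both later stages, whose libraries overlapped for all 3 genes, as the stacked bars show. A ratio of genes within a library does not depend on how libraries are scaled. The Egln3 to Egln1 ratio was 0.151, 0.124 and 0.0747 at day 0, 0.763, 1.25 and 0.853 at day 4, and 1.22, 1.37 and 1.05 at day 7. Its log2 value was 3.43 higher at day 7 than at day 0, with an exact permutation p of 0.1 (two-sided), the smallest that 3 libraries against 3 allow.

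**Figure D2:**
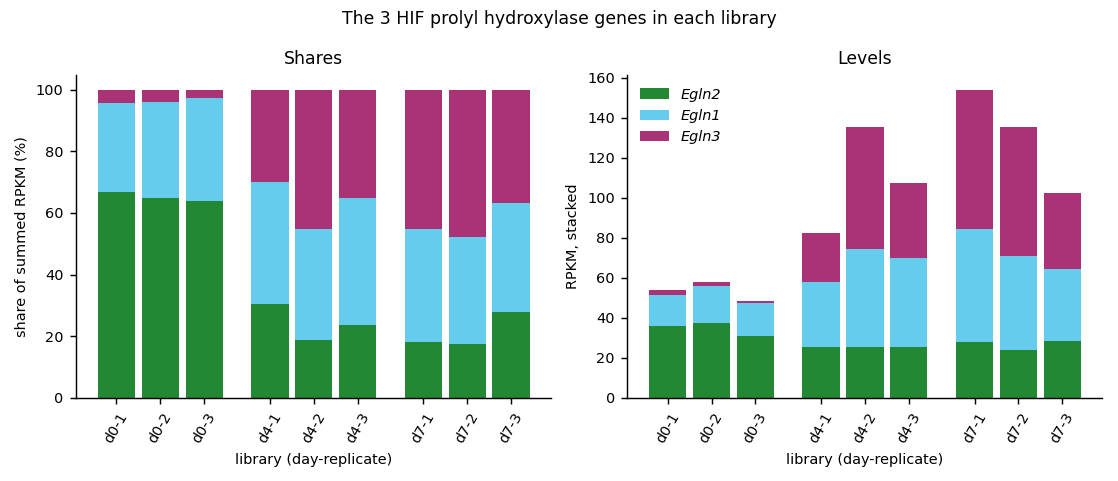
Egln2, Egln1 and Egln3 in each of the 9 libraries (x axis, day and replicate), on the left as a share of their summed RPKM in percent and on the right as stacked RPKM. Egln2 fills 63.9% or more of each day 0 bar, and Egln3 fills 30.1% to 47.7% of the bars of day 4 and day 7.

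Hif1a, the alpha subunit found in most cells, had the highest mean level of all members at day 0 and day 4. It was at 55.0, 48.7 and 35.7 RPKM at day 0, at 63.6, 65.4 and 68.4 RPKM at day 4 and at 46.4, 40.4 and 36.6 RPKM at day 7. Every day 4 library was above every library of the other stages, whereas day 0 and day 7 overlapped. The mean at day 4 was 1.42 times that of day 0 and 1.60 times that of day 7, and this peak also held with median-of-ratios scaling and with scaling to reads on protein-coding genes. Neither scaling removes the separate table and greater depth of day 4, so the peak cannot be told apart from these. Between day 0 and day 7 the log2 fold change was −0.16 ± 0.16 (SE), with a 95% interval of −0.49 to 0.17 and a limma adjusted p of 0.494. Without day 0 replicate 3, the library lowest in Hif1a at that stage, it was −0.34 with a limma adjusted p of 0.0258, the only alternative of 19 in which Hif1a was called. Its nearest patterns over the 9 libraries were Sltm (r = 0.980), Tex261 (r = 0.979) and Cdc14b (r = 0.975). The gene at chr12:73901375-73947530 on the plus strand overlaps the antisense gene Gm15283, which had 3 to 95 reads per library and at most 2.54 CPM, beside at least 210 CPM for Hif1a. It also overlaps Gm49321 on its own strand, which was not analysed here, and 5.74% of the 50-base stretches of its transcripts occur in those of other genes, 2 in all.

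Epas1 encodes HIF-2α, best known from endothelial cells, and was barely expressed. Its values were 0.228, 0.268 and 0.365 RPKM at day 0, 0.344, 0.298 and 0.251 RPKM at day 4 and 0.414, 0.265 and 0.253 RPKM at day 7, from 15 to 60 reads per library. The 3 stages overlapped, and the log2 fold change to day 7 was 0.080 with a 95% interval from −0.46 to 0.62 (limma adjusted p = 0.854). Changes within this range are thus not excluded. Hif1a exceeded Epas1 in every library, by 97.7 to 241 times at day 0, 185 to 273 times at day 4 and 112 to 153 times at day 7. The log2 ratio of Epas1 to Hif1a differed by 0.26 between day 7 and day 0, less than the spread at day 0 (SD 0.67), with an exact permutation p of 0.5. Hif3a, whose splice forms include inhibitors of HIF, had 0 to 5 reads in the day 0 and day 7 libraries and 10 to 16 reads in the deeper day 4 libraries. Its level was at most 0.0638 RPKM in all 9, and no fold is given since its reads at day 0 and day 7 were near the floor of 3 reads set for detection. Epas1 lies at chr17:86753700-86833410 on the plus strand and overlaps AC096777.1 on its own strand. Hif3a lies at chr7:17031507-17062427 on the minus strand and overlaps 4833404L02Rik on the opposite strand. Neither overlapping gene was analysed here.

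**Figure D3:**
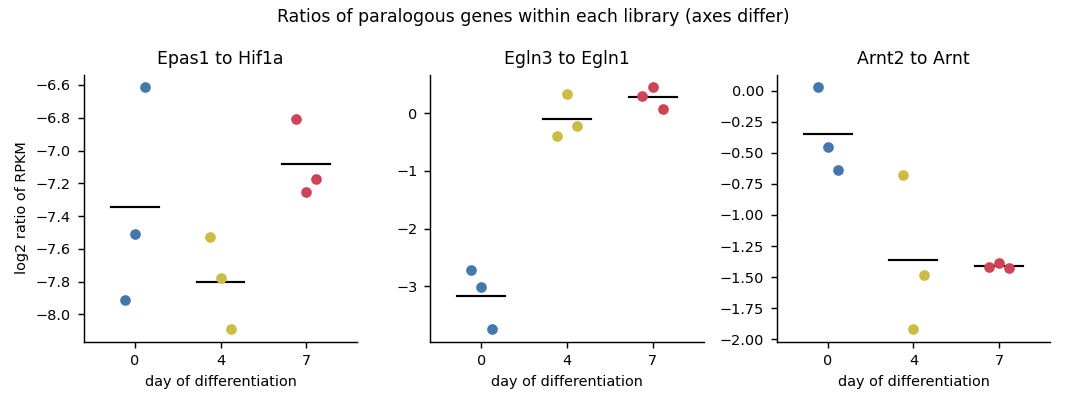
Log2 ratio of RPKM for 3 pairs of related genes (y axis, a different range in each panel) by day of differentiation (x axis). Points are libraries and bars are means of 3; the Egln3 to Egln1 ratio is higher in all 6 later libraries than at day 0, the Arnt2 to Arnt ratio is lower in them, and the Epas1 to Hif1a ratios of day 0 and day 7 overlap.

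Arnt2 was the member that fell. It encodes a beta subunit best known from neurons, where it can stand in for Arnt. It was at 5.40, 4.24 and 3.41 RPKM at day 0, at 2.89, 1.17 and 1.73 RPKM at day 4 and at 1.92, 1.61 and 1.67 RPKM at day 7. Every later library was below every day 0 library, and the day 4 and day 7 libraries overlapped. The level at day 7 was 2.41-fold lower, with a log2 fold change of −1.27 ± 0.19 (SE), a 95% interval of −1.64 to −0.89 and a limma adjusted p of 2.87e-07. In a bulk sample, fewer cells of a type that expresses a gene and less of its RNA per cell cannot be told apart. The genes with the nearest patterns over the 9 libraries were Mki67, a marker of dividing cells (r = 0.983), Elmo2 (r = 0.983) and Ctnnal1 (r = 0.982). Mki67 went from 14.1 RPKM at day 0 to 7.68 at day 4 and 8.01 at day 7.

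The summed level of 7 chondrocyte markers, most of it the cartilage collagen Col2a1, was 474, 169 and 187 RPKM in the day 0 libraries, 177, 60.1 and 91.1 RPKM at day 4 and 172, 68.5 and 74.1 RPKM at day 7. In each stage replicate 1 was highest in this sum, in Arnt2 and in Mki67. At day 0, replicates 2 and 3 ranked in opposite order in this sum and in Arnt2. Of the 6 chondrocyte markers tested, 3 fell and 2 rose from day 0 to day 7, and none of the 7 was at 0 in all libraries. The part of these cells in the fall of Arnt2 was not tested. Arnt2 at chr7:84246278-84410176 on the minus strand overlaps the antisense gene Gm30873, not analysed here. Of the 50-base stretches of Arnt2 transcripts, 2.30% occur in those of other genes, 121 in all, so its level is less certain than that of Egln3.

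Arnt, the general partner of HIF alpha subunits and of the dioxin receptor, did not pass the test between day 0 and day 7. It was at 5.27, 5.81 and 5.29 RPKM at day 0, 4.62, 4.44 and 4.85 RPKM at day 4 and 5.12, 4.21 and 4.48 RPKM at day 7. Every later library lay below those of day 0, but with median-of-ratios scaling the stages overlapped. The log2 fold change to day 7 was −0.25 ± 0.16 (SE), with a 95% interval of −0.57 to 0.079 and a limma adjusted p of 0.260, and it passed the threshold only with scaling to reads on protein-coding genes (−0.30, limma adjusted p = 0.0288). The Arnt2 to Arnt ratio was 1.02, 0.731 and 0.644 at day 0, 0.626, 0.264 and 0.357 at day 4 and 0.375, 0.383 and 0.372 at day 7, with no overlap between day 0 and either later stage. The log2 ratio fell by 1.06 from day 0 to day 7, with an exact permutation p of 0.1, again the smallest possible. The pair was thus near equal in RPKM in day 0 replicate 1 and weighted to Arnt in the 6 later libraries. Arnt lies at chr3:95434388-95497240 on the plus strand and overlaps the pseudogene Gm42672, not analysed here.

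Hif1an encodes FIH, the asparaginyl hydroxylase. Its values were 4.76, 4.86 and 3.79 RPKM at day 0, 3.92, 3.58 and 3.82 RPKM at day 4 and 4.04, 2.98 and 3.89 RPKM at day 7, with overlap between all stages. With median-of-ratios scaling and with scaling to reads on protein-coding genes, the libraries of both later stages were all lower than those of day 0. The log2 fold change to day 7 was −0.30 ± 0.17 (SE, limma adjusted p = 0.200), and it passed the threshold, lower at day 7, in 3 of 19 alternatives, among them the fits without day 0 replicate 3 (−0.41, limma adjusted p = 0.0290) and without both day 0 replicate 3 and day 7 replicate 2 (−0.27, limma adjusted p = 0.0474). Vhl was at 19.1, 17.7 and 12.6 RPKM at day 0, 17.8, 20.3 and 20.1 RPKM at day 4 and 17.0, 15.4 and 17.5 RPKM at day 7. Day 0 overlapped with both later stages, and day 7 lay below day 4 in every library. With median-of-ratios scaling, day 7 overlapped with day 4 and every day 4 library lay above those of day 0. The log2 fold change of Vhl from day 0 to day 7 was 0.038 ± 0.17 (SE), with a 95% interval of −0.30 to 0.37 and a limma adjusted p of 0.889, and its sign turned with scaling to reads on protein-coding genes (−0.019) and without day 0 replicate 3 (−0.14). On the linear scale this interval is 0.815-fold to 1.29-fold. Hif1an is at chr19:44562850-44576274 and Vhl at chr6:113623959-113631633, both on the plus strand and without an overlapping gene.

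**Figure D4:**
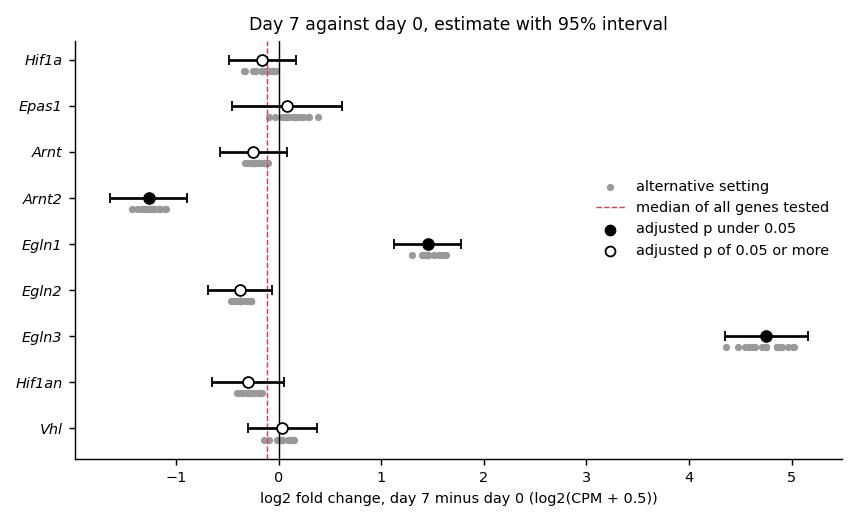
Log2 fold change of the 9 members tested, day 7 minus day 0 (x axis), with 95% intervals. Filled circles passed an adjusted p of 0.05, open circles did not, small grey points below each are the 19 alternatives, and the dashed line is the median of all genes tested (−0.11); Egln1 and Egln3 lie to the right of 0 and Arnt2 to the left under every alternative.

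Ranked by mean RPKM at day 0, the order was Hif1a, Egln2, Egln1, Vhl, Arnt, Hif1an, Arnt2, Egln3, Epas1 and Hif3a. Among these neighbours, Hif1a and Egln2, Egln1 and Vhl, and Hif1an and Arnt2 overlapped in their libraries. At day 4 the order began with Hif1a, Egln1, Egln3 and Egln2, where Egln1 and Egln3 overlapped, as did Egln3 and Egln2. At day 7 Egln3 came first with 57.3 ± 17.1 RPKM (SD), followed by Egln1 with 46.6 ± 10.4 and Hif1a with 41.1 ± 4.9, and these neighbours overlapped. Egln3 thus moved from the eighth place to the first, and the places of Vhl, Arnt, Hif1an, Arnt2, Epas1 and Hif3a kept their order relative to each other at all 3 stages.

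For the lists that follow, the shares over all genes tested are 12.6% higher and 18.6% lower at day 7. Of 14 partners of Vhl in the ligase and other proteins of HIF stability, 1 rose and 0 fell by limma (1 each at an unadjusted p under 0.05), with a median log2 fold change of −0.035. With median-of-ratios scaling and with edgeR 4 rose and 1 fell, and with scaling to protein-coding reads 1 rose and 4 fell, so this list has no direction apart from the scaling. The riser was Usp20, a deubiquitinase known to act on HIF-1α, which went from 3.23 ± 0.49 to 4.92 ± 0.71 RPKM (SD, log2 fold change 0.60, limma adjusted p = 0.00552). The ligase subunits Elob, Eloc, Cul2 and Rbx1 had log2 fold changes from −0.13 to 0.020 and did not pass the test. Of 7 HIF coactivators and modulators tested, 2 fell and 0 rose by limma (3 and 0 at an unadjusted p under 0.05, 2 and 0 by edgeR), with a median of −0.31. With scaling to protein-coding reads 5 fell, and 4 fell without day 0 replicate 3. The 2 that fell in the main limma test were Ncoa2, from 3.22 to 1.96 RPKM (log2 fold change −0.71, limma adjusted p = 0.000534), and Cited2, which competes with HIF alpha for coactivators, from 16.8 to 12.0 RPKM (−0.48, limma adjusted p = 0.0254, called in 13 of 19 alternatives).

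Of 9 other factors of the bHLH-PAS family to which HIF belongs, 3 fell and 1 rose, beside 18.6% and 12.6% of all genes, with a median of −0.26. The largest fall was that of Ahrr, the repressor of the dioxin receptor, from 1.52 to 0.606 RPKM (log2 fold change −1.25, limma adjusted p = 6.59e-06), and the rise was that of Npas2, a clock factor, from 0.868 to 1.64 RPKM (0.86, limma adjusted p = 0.00159). Of 8 other oxygen-dependent dioxygenases, 1 rose, Jmjd6 (0.59, limma adjusted p = 0.00344), and 1 fell, the histone demethylase Kdm4a (−0.48, limma adjusted p = 0.0125), with a median of −0.13. With scaling to protein-coding reads 2 rose and 3 fell, and 1 rose and 4 fell without day 0 replicate 3. That list leaves out Kdm3a, Kdm4b, P4ha1 and P4ha2, also oxygen-dependent dioxygenases, which were counted among the HIF targets. They rose by log2 fold changes of 0.61, 0.91, 2.10 and 3.05, each past the threshold by limma. Of the known HIF targets outside glycolysis, 25 of 30 tested rose and 1 fell, with a median log2 fold change of 1.91 beside −0.11 over all genes, and 25 to 27 rose under other scalings, by edgeR and DESeq2 and without day 0 replicate 3. The largest rise was that of Cox4i2, an isoform of a cytochrome oxidase subunit, from 0.421 to 70.1 RPKM (6.05, limma adjusted p = 2.56e-28), and the fall was that of Hmox1, the heme oxygenase, from 129 to 74.7 RPKM (−0.79, limma adjusted p = 4.93e-05). Epo was at 0 in all 9 libraries. The lists were drawn up with earlier results of these data known, so the direction of this list is no independent evidence. The strip of points by list shows the HIF targets spread to the right of the other lists.

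**Figure D5:**
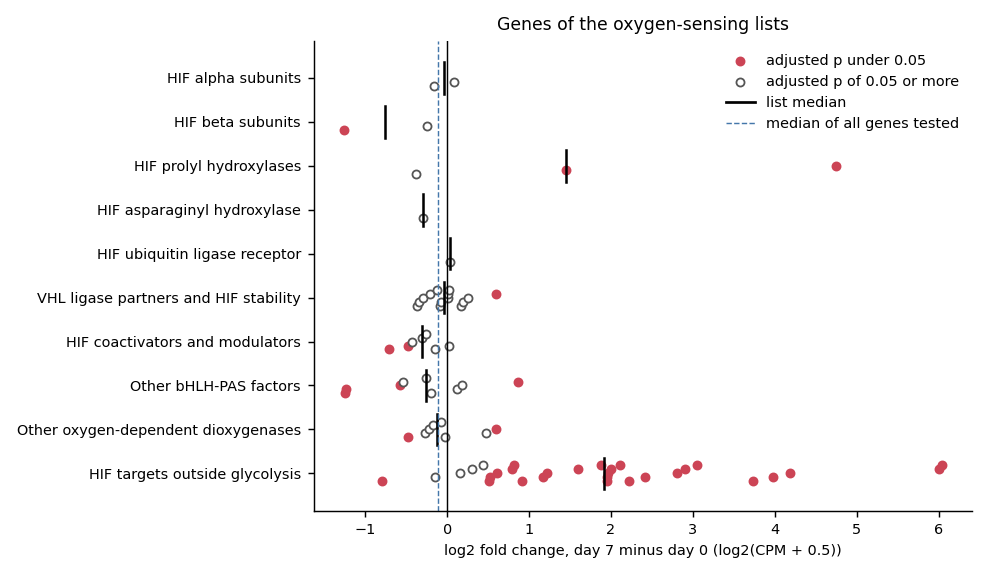
Log2 fold change, day 7 minus day 0 (x axis), of each tested gene of 10 lists (y axis, points staggered). Filled points passed an adjusted p of 0.05, black bars are list medians and the dashed line is the median of all genes tested (−0.11); 25 of 30 HIF targets outside glycolysis lie to the right and passed, with a list median of 1.91.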

How the data were processed

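RNA was sequenced after depletion of ribosomal RNA (Ribo-Zero Gold). According to the methods and the submitters' processing notes, the authors aligned reads to GRCm38 with STAR 2.0.4b and summed the reads of each gene with featureCounts, leaving out those with several alignments or several genes. Use of strand in counting is not given in the sources used here. The authors deposited CPM (reads on a gene scaled to the library's total) and RPKM (CPM per kilobase of gene model), with day 0 and day 7 in a shared table and day 4 in another. Identical repeated lines were used once, and genes were joined by Ensembl identifier. In every library 100% of CPM values were whole multiples of 1 read within a tolerance of 0.02, so reads were recovered. Intervals of fold changes come from limma's spread between libraries, drawn toward the trend over all genes. The floor of 3 reads covers counting error only, as PCR copies were not marked.

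The main test of day 7 against day 0 used limma 3.58.1 (R 4.3.3, mean-variance trend) on log2(CPM + 0.5), for genes whose CPM averaged 1 or more in the 6 libraries, with an adjusted p threshold of 0.05. CPM are not counts, so edgeR 4.0.16, DESeq2 1.42.0 and voomWithQualityWeights on recovered reads were alternatives. Ratios had two-sided exact permutation tests. The other alternatives were pseudocounts of 0.1 and 1, any reads as filter, TMM and median-of-ratios scaling, RPKM, robust variances, a replicate block, each library left out and, added after seeing the data, scaling to protein-coding reads and leaving out day 0 replicate 3 with day 7 replicate 2. The limma step was also run on simulated counts with the same dispersion for all genes. These lacked the uneven shares of single RNAs seen here, so they do not bear on the choice of scaling.

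The 10 members and all gene lists were chosen with earlier results of these data known. Named genes are the members, in each other list the genes past the threshold that rose or fell most, and the 3 genes most like Hif1a, Egln3 and Arnt2 by Pearson r. The ligase subunits, Cited2, Epo and Bnip3 were named after their values were seen. So were Kdm3a, Kdm4b, P4ha1 and P4ha2, and the osteoblast, osteoclast and endothelial markers given as low. Coordinates and overlaps come from GENCODE M21 (GRCm38).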

Additional observations from a re-analysis of the deposited data

How the results depend on the processing

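The rises of Egln1 (log2 fold change from 1.30 to 1.63) and Egln3 (4.36 to 5.03) and the fall of Arnt2 (−1.43 to −1.10) held their direction and side of the threshold in all 19 alternatives, so the number of members higher at day 7 was 2 in each. The number lower at day 7 was 1 but became 2 (with Egln2) with median-of-ratios scaling, TMM scaling, edgeR, DESeq2 and voomWithQualityWeights, 4 with scaling to protein-coding reads, 3 without day 0 replicate 3 and day 7 replicate 2 together, and from 1 to 4 when each library was left out, with 4 without day 0 replicate 3. Of all genes, 40.3% of 3971 calls were higher at day 7, beside 51.8% of 5456 with median-of-ratios scaling, 30.3% of 5803 with protein-coding reads and 51.5% of 5468 with edgeR, and 6299 genes were called without day 0 replicate 3. The cause of these shifts was not tested.

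Epas1 turned from 0.080 to −0.033 without day 0 replicate 1 and to −0.095 without day 7 replicate 1 (range −0.095 to 0.22 over single libraries, 0.30 without both named libraries) and was 0.28 with edgeR, 0.24 with DESeq2 and 0.38 with voomWithQualityWeights, where it was not called, and the log2 ratio of Epas1 to Hif1a from 0.26 to −0.022 without day 0 replicate 1 (range −0.022 to 0.63). Vhl turned from 0.038 to −0.019 with protein-coding reads, to −0.088 without both named libraries and to −0.14 without day 0 replicate 3 (range −0.14 to 0.16). The number of members whose day 4 and day 0 libraries did not overlap was 6 to 7, and that of day 7 and day 4 was 2 to 3. Deviations of same-numbered libraries of day 0 and day 7 correlated at −0.017, −0.18 and −0.44, none of them positive. The highest value, 0.36, joined day 0 replicate 3 and day 7 replicate 2, the libraries rich in Gm42418, so this check cannot exclude pairing. Col2a1 was highest in replicate 1 and lowest in replicate 2 at every stage. Whether the numbers pair the libraries was not settled. With a replicate block, 2 members were higher and 1 lower, unchanged in number, the log2 differences of the ratios were 0.26, 3.43 and −1.06, and 3413 genes were called in place of 3971. Egln2 then had an adjusted p of 0.115 in limma.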
